A study of Mus musculus with 23 samples.

Results

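Olig1, Olig2, Gpr17 and Cacng4 are 4 genes known from oligodendrocyte progenitors, and they are described here in RNA that was precipitated through an astrocyte-targeted tag. They were chosen by gene symbol, with earlier results of these data known, as 4 of 9480 genes with counts in either fraction. Each had 1 row in the table of each fraction. Mouse spinal cord was taken from young adults carrying mGFAP-Cre and RiboTag, in which Cre driven by a mouse Gfap promoter puts a hemagglutinin (HA) tag on ribosomes. All cords had been severely crushed at thoracic level 10 (spinal cord injury, SCI), and 14 days later the central 3 mm of each lesion was taken. RNA precipitated with the tag (HA) and RNA left in the flow-through (FT) were sequenced as separate libraries.

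The HA libraries numbered 3 with hydrogel carrying growth factors, 3 with hydrogel CT and 4 with SCI only, and the FT libraries numbered 5, 4 and 4 in the same order. Hydrogel depots were injected 2 days after injury. The labels give the genotype of all 23 libraries as wild type and do not explain CT, a group that the table headers call EmGel. The series title names the growth factors as FGF and EGF, whereas the table headers name BDNF and NT3 for that group, and this was not settled here. Title numbers link 10 HA libraries to an FT library. Hydrogel libraries carry numbers 1645 to 1762 and SCI only libraries 9596 to 9935, so wherever SCI only is the other arm, cohort and hydrogel cannot be told apart. Whether each number is a separate animal is not stated, so the p-values rest on a spread between libraries that may be partly technical.

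Oligodendrocyte progenitors are glial cells that keep dividing in the adult spinal cord and give rise to myelinating oligodendrocytes, also after injury. Olig1 and Olig2 are basic helix-loop-helix transcription factors of this lineage, and Olig2 is also known from some astrocytes of the spinal cord. Gpr17 is a G protein-coupled receptor related to purinergic and cysteinyl leukotriene receptors, and it marks cells between the progenitor and the myelinating stage. Cacng4 encodes an auxiliary subunit of AMPA-type glutamate receptors, one of the transmembrane AMPA receptor regulatory proteins (TARPs).

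Olig2 (ENSMUSG00000039830, chr16:91225457-91228677, plus strand, 2 exons) and Olig1 (ENSMUSG00000046160, chr16:91269772-91271933, plus strand, 1 exon) are neighbours on chromosome 16 of build mm10, with 41094 bases between them. Because Olig1 and Olig2 are paralogs, the stretch around the longest exact run shared by their transcripts is shown, with that run of 17 bases in capitals. Both stretches are coding, at chr16:91270153-91270199 in the exon of Olig1 and at chr16:91226718-91226764 in exon 2 of Olig2, written 5′ to 3′ from the GENCODE M21 transcripts.
Olig1: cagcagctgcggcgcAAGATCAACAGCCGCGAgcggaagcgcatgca
Olig2: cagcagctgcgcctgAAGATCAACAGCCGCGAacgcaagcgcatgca
Of the 47 bases shown, 42 are the same in both genes.

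Gpr17 (ENSMUSG00000052229) lies on the minus strand at chr18:31942997-31949636 with 2 exons, and Cacng4 (ENSMUSG00000020723) on the minus strand at chr11:107732357-107794557 with 4 exons. No 31-base word of Olig2 occurs in a transcript of another gene. In Olig1, 5.96% of such words occur in the antisense RNA Gm15966, which shares 157 exon bases with it on the opposite strand. In Gpr17, 2.59% occur in Lims2, a gene on the opposite strand that shares 188 exon bases with it, and in Cacng4 2.45% occur in other genes, 324 in all. The strand setting of the counting is not given in the sources used here, so reads from these stretches could not be assigned to 1 strand.

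The depth differed widely between fractions. HA libraries held 7939015 to 24335808 counts and FT libraries 19600 to 144902 in the hydrogel groups and 2241508 to 5432216 with SCI only. The noncoding locus Yam1, known to collect ribosomal RNA reads, took 40.0% to 93.1% of an HA library and 13.8% to 93.1% of an FT library. Gfap, the astrocyte filament whose promoter drives the Cre, ranged from 1058 to 3163 CPM (counts relative to the TMM-scaled library size) in HA, with a median of 1660, and from 10.9 to 258 in FT, with a median of 189. Over the 10 linked numbers, 14 astrocyte markers summed to 4474 to 9836 CPM in HA and 248 to 2455 in FT.

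All 4 genes were higher in HA than in FT. The comparison asked whether these transcripts followed the tagged ribosomes, and it used the 10 linked numbers and 3295 tested genes. With edgeR's quasi-likelihood test and Benjamini-Hochberg adjustment at 0.05, 4 of 4 genes passed as higher, while 13.2% of all tested genes did. Because the 4 genes were picked with earlier results known, this contrast is a description and no independent test. Fitted levels were 3.94-fold to 10.6-fold higher in HA. The median log2 difference of all tested genes was 0.28. The filter on low counts asked for 1.5 CPM, before scaling, in enough libraries, and every HA library reached this for all 4 genes. In FT, 10 of 10 libraries reached it for Olig1, 8 for Olig2, 7 for Gpr17 and 9 for Cacng4. The FT hydrogel libraries were so shallow that 1 count was enough, as for Olig1 in number 1685. In number 9874 with SCI only, 3 counts of Olig2 were not enough. Reaching the cutoff in FT therefore does not mean a well measured level.

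Olig1, which promotes oligodendrocyte maturation and myelin repair, ranged from 181 to 515 CPM in HA with a median of 324, against 4.61 to 78.6 in FT with a median of 35.2. The lowest HA library was above the highest FT library, which held for 1.70% of tested genes. Its log2 difference was 3.17 (SE 0.38, 95% interval 2.40 to 3.94, adjusted p = 1.46e-07).

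For Olig2, which specifies the lineage, HA libraries had 25.2 to 173 CPM with a median of 85, and FT libraries 0 to 28.2 with a median of 5.98. HA was above FT in 10 of 10 numbers, although FT of number 9596 (28.2 CPM) exceeded HA of number 1762 (25.2 CPM). This pattern of HA above FT in every number was found in 8.01% of tested genes and held for Olig1 and Cacng4 as well. The log2 difference of Olig2 was 3.40 (SE 0.48, 95% interval 2.43 to 4.37, adjusted p = 3e-06).

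Gpr17 reached 3.59 to 123 CPM in HA with a median of 50.2, against 0 to 11.1 in FT with a median of 5.43. It was higher in HA in 9 of 10 numbers. The exception was number 1762 of hydrogel CT, with 3.59 CPM in HA (172 counts) and 9.01 CPM in FT (2 counts). Its log2 difference was 3.30 (SE 0.50, 95% interval 2.28 to 4.32, adjusted p = 1.12e-05).

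Cacng4 showed the smallest difference of the 4 genes, with 38.4 to 171 CPM in HA and a median of 60.8, against 0 to 55.6 in FT and a median of 12.4. A single FT library, number 1732 with growth factors, held 82 of the 169 Cacng4 counts in all 13 FT libraries. Its HA partner was also the highest HA library for Cacng4, at 171 CPM. The log2 difference was 1.98 (SE 0.44, 95% interval 1.09 to 2.86, adjusted p = 0.00097).

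**Figure D1:**
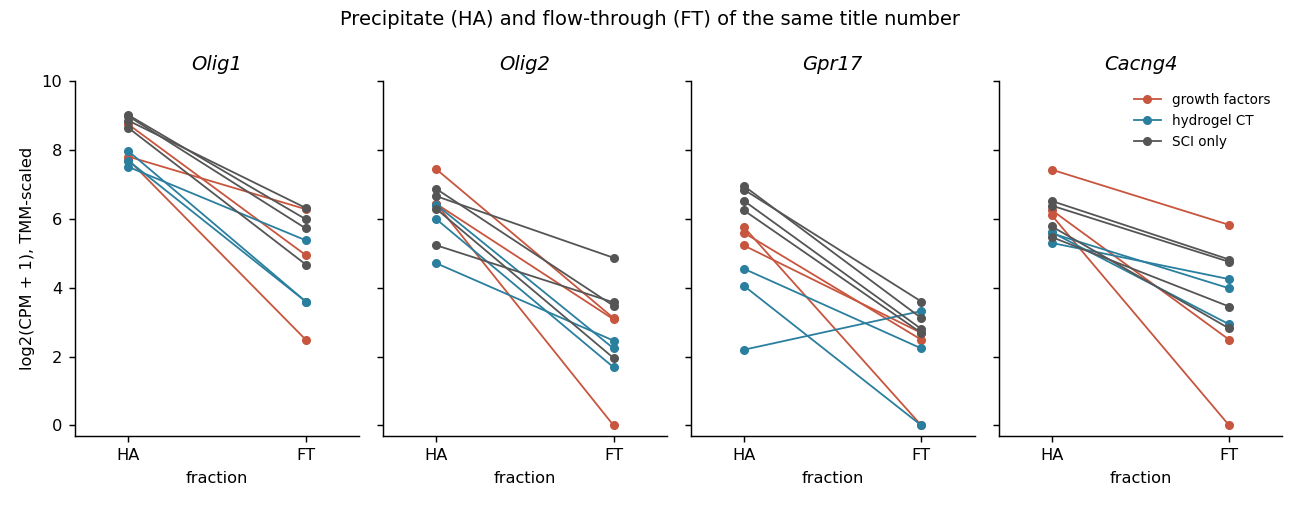
Level of each gene as log2(CPM + 1) in the HA and FT library of each of the 10 title numbers, joined by a line and coloured by treatment. All lines fall toward FT except that of Gpr17 in number 1762 of hydrogel CT, and only for Olig1 do the HA and FT points not overlap.

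Split by treatment, each of the 12 log2 differences was positive, between 1.81 and 4.34. With growth factors 3 of 4 genes passed as higher, and 8.71% of all tested genes did. There, Olig2 stood at 85.6, 85.8 and 173 CPM in HA, against 0, 7.46 and 7.66 in FT, and its log2 difference was 4.34 (SE 0.89, adjusted p = 0.00184). Olig1 differed by 3.06 (adjusted p = 0.00379) and Gpr17 by 3.38 (adjusted p = 0.0114), while Cacng4 stood at 2.05 (adjusted p = 0.0784). In a fit of the growth factor libraries alone, the calls of Olig1 (2.97, adjusted p = 0.0937) and Gpr17 (3.41, adjusted p = 0.211) were lost. Cacng4 passed at 4.69 (adjusted p = 0.0186) once number 1732 was left out. The median of all tested genes rose in that fit too, to 1.12 from 0.49. The FT libraries left, numbers 1685 and 1687, held 1 and 0 counts of Cacng4. Gfap stood at 10.9 CPM in FT of number 1732, against 148 and 238 in those libraries. Leaving out single numbers within a treatment was added after seeing the data.

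In the hydrogel CT group 2 of 4 genes passed, against 1.21% of all tested genes. Olig1 had 181, 205 and 249 CPM in HA and 11.1, 11.1 and 40.5 in FT, which differed by 3.41 (adjusted p = 0.0055). Olig2 differed by 4.13 (adjusted p = 0.0149). Both calls were lost without number 1724 (adjusted p = 0.0876 and 0.152) or 1759 (0.164 and 0.201). Gpr17 stood at 1.97 (adjusted p = 0.289) and Cacng4 at 1.81 (adjusted p = 0.257). Counts in FT were few here. Gpr17 had 1229 counts in 3 HA libraries and 3 in 3 FT libraries, a scaled ratio of 3.71 with an exact 95% interval of 1.27 to 18. The interval for Olig2, from 5304 and 3 counts, was 5.48 to 77.7 around a ratio of 16. These intervals treat each read as an independent count and leave out the spread between libraries. The reads carry no molecular identifiers, so a read need not be a separate molecule.

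In SCI only animals, where no hydrogel was placed, 3 of 4 genes passed and 2.85% of all tested genes did. Gpr17 was at 74.8, 90.9, 114 and 123 CPM in HA, against 5.43, 5.96, 7.67 and 11.1 in FT, and the log2 difference was 3.72 (SE 0.70, adjusted p = 0.00101). Olig1 differed by 3.10 (adjusted p = 0.000904). Olig2 differed by 2.60 (adjusted p = 0.0145), which missed the threshold when number 9843 (0.146), 9874 (0.104) or 9935 (0.0527) was left out. Cacng4 stood at 2.02 (adjusted p = 0.0735), and passed without number 1685 (0.0409), 1687 (0.0323) or 1732 (0.0166) of the growth factor group, which shares the estimate of the spread.

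**Figure D2:**
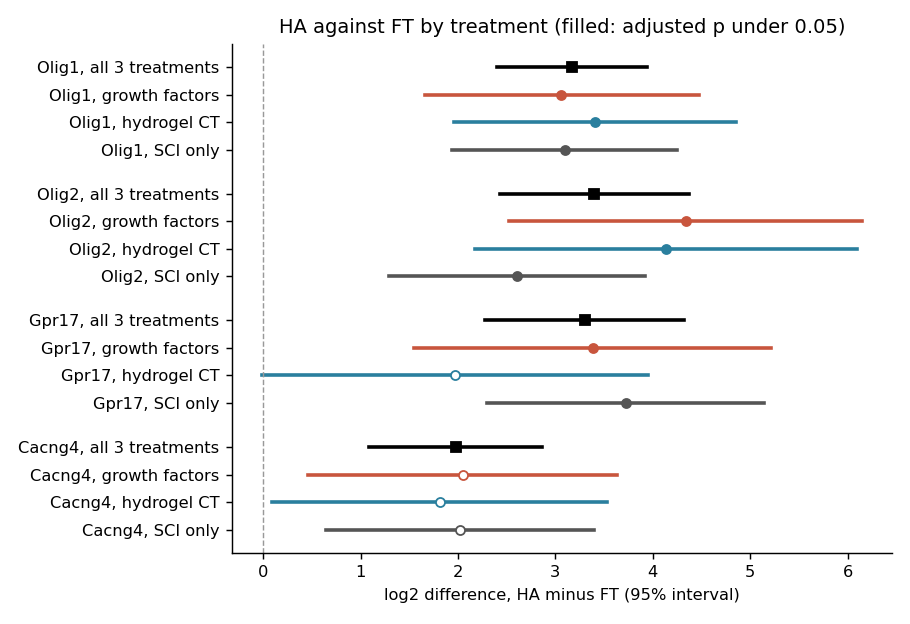
Log2 difference of HA minus FT with its 95% interval for each gene, over all treatments (squares) and within each treatment (circles), filled where the adjusted p was under 0.05. The intervals of the 3 treatments overlap for every gene, and those of hydrogel CT reach lowest for Gpr17 and Cacng4.

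Whether the difference between fractions depended on treatment was tested as an interaction, and none of the 4 genes passed. Gpr17 differed by -1.75 between hydrogel CT and SCI only (95% interval -4.31 to 0.81, adjusted p = 0.999), and by 0.01 without number 1762. Olig2 differed by 1.73 between growth factors and SCI only (95% interval -0.42 to 3.88, adjusted p = 0.494). Intervals this wide do not show that the treatments were alike. Of all tested genes, 0.00% passed for growth factors minus hydrogel CT, 0.00% for hydrogel CT minus SCI only and 0.0607% for growth factors minus SCI only with edgeR. Unadjusted p-values under 0.05 numbered 339, 141 and 436.

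Other genes of the progenitor list also stood higher in HA. Of its 24 genes, 17 had a row in the HA table and 9 in both tables. The remaining 7, with the receptor Pdgfra that defines these cells, had no row in either table, so their levels are not known here. All 9 genes in both tables were tested. Beside the 4 genes described above, 4 of the other 5 passed as higher, where 13.2% of all tested genes did, with a median log2 difference of 1.84 over the 5. They were Luzp2 at 3.26 (SE 0.49, adjusted p = 7.85e-06), Tnr, a tenascin of the extracellular matrix, at 1.84 (adjusted p = 0.0345), Ptprz1, a receptor phosphatase that astrocytes also carry, at 1.82 (adjusted p = 0.0019) and Sox10, a transcription factor of the whole lineage, at 1.41 (adjusted p = 0.0242). Cspg4, the NG2 proteoglycan, stood at 1.98 (SE 0.77, adjusted p = 0.0665). FT counts of these 5 were low, at most 15 for Luzp2, 16 for Tnr, 58 for Ptprz1, 56 for Sox10 and 26 for Cspg4. Cspg4 had a count in 4 FT libraries and Tnr in 6. The filter on low counts could be met mostly through HA libraries, so these calls are not independent support. The list without Olig1, Olig2, Gpr17 and Cacng4 summed to 131 to 323 CPM in HA and 13.8 to 102 in FT.

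Of 14 mature oligodendrocyte genes tested, 7 were higher and 0 lower, with a median of 1.22, from Mag, an adhesion protein of myelin, at 2.26 (SE 0.50, adjusted p = 0.0011) to Mbp, the myelin basic protein, at -0.65 (SE 0.63, adjusted p = 0.514). Whether the progenitor and mature lists differed from each other was not tested. Astrocyte genes passed as higher in 13 of 14 tested, with a median of 2.24, from the secreted chaperone Clu at 3.91 (SE 0.38, adjusted p = 2.35e-09) to the glutamate transporter Slc1a3 at 0.36 (SE 0.81, adjusted p = 0.804). The AMPA receptor and TARP list had only Cacng4 and Cacng7 tested, and Cacng7 stood at -0.65 (SE 0.48, adjusted p = 0.376). Among 7 tested partners and relatives of the Olig factors, 5 were higher, from the helix-loop-helix inhibitor Id3 at 3.05 (SE 0.50, adjusted p = 2.98e-05) to Id2 at 0.48 (SE 0.49, adjusted p = 0.536). The list of committed progenitors and newly formed oligodendrocytes had 2 genes tested, and Myrf, which drives myelin gene expression, was higher by 2.17 (adjusted p = 0.00156), while Rras2 stood at 1.60 (adjusted p = 0.131).

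Markers of microglia and neurons were lower in HA. Microglia and macrophage genes summed to 17.4 to 852 CPM in HA and 91.6 to 7850 in FT, and 7 of 8 tested were lower in HA, against 7.37% of all tested genes. Neuron genes summed to 48.3 to 562 CPM in HA and 452 to 1676 in FT, with 7 of 8 lower. Mature oligodendrocyte genes summed to 1349 to 3080 CPM in HA and 243 to 1524 in FT. The part of these cell types in the results of the 4 genes was not tested. In tissue RNA, fewer cells of a type and less RNA per cell cannot be told apart.

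**Figure D3:**
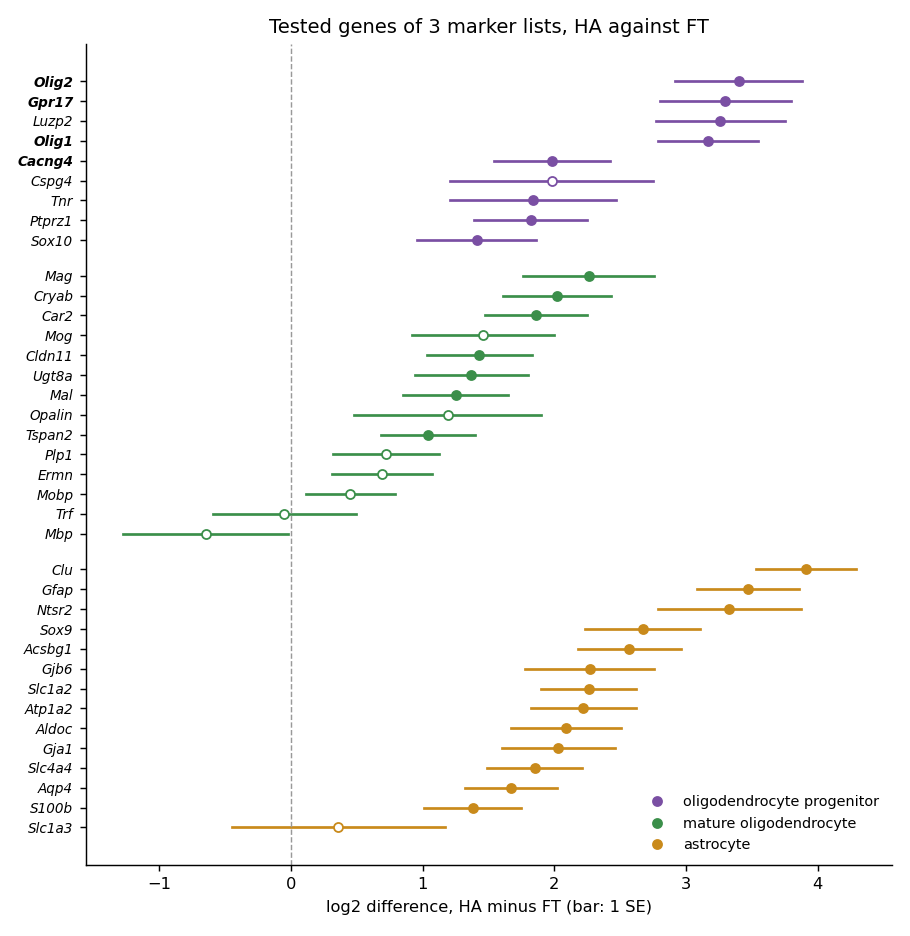
Log2 difference of HA minus FT with 1 SE for every tested gene of the progenitor, mature oligodendrocyte and astrocyte lists, filled where the adjusted p was under 0.05, with Olig1, Olig2, Gpr17 and Cacng4 in bold. Progenitor genes lie between 1.41 and 3.40, mature oligodendrocyte genes between -0.65 and 2.26 and astrocyte genes between 0.36 and 3.91.

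Relative to each other, the 4 genes held a loose order in HA. Per base of transcript, the median ratio over 10 HA libraries was 0.182 for Olig2 to Olig1, 0.136 for Cacng4 to Olig1 and 0.0766 for Gpr17 to Olig1. Every HA library had Olig1 as the highest of the 4, with these ratios at most 0.663, 0.248 and 0.111. Olig2 and Cacng4 did not keep an order, with Cacng4 to Olig2 running from 0.283 to 1.79 per base. Gpr17 was below Olig2 per base in all 10 HA libraries (0.0692 to 0.996), and its ratio to Cacng4 ran from 0.0629 to 1.42.

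Between treatments within HA, none of the 4 genes passed edgeR's test in the fit over all 3 groups, and Gpr17 passed for hydrogel CT against SCI only with DESeq2 and in a fit of only those groups. The comparison of growth factors with hydrogel CT asked what the carried factors added, if EmGel in the headers stands for empty gel. The others asked what each depot changed against injury alone. Gpr17 had the largest differences. It was lowest with hydrogel CT, intermediate with growth factors and highest with SCI only, and the libraries of the 3 groups did not overlap. Levels from this paragraph up to the results within FT are CPM scaled over HA libraries alone, on which 6654 genes were tested. They therefore differ from the CPM given above for the same libraries, which were scaled over HA and FT together.

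Gpr17 stood at 22.2, 28.8 and 31 CPM with growth factors, at 2.21, 9.59 and 13.5 CPM with hydrogel CT and at 38.2, 52.5, 56.5 and 66.8 CPM with SCI only. All libraries of hydrogel CT lay below all of SCI only, as they did for 6.21% of tested genes. The log2 difference of hydrogel CT minus SCI only was -2.67 (SE 0.67, 95% interval -4.07 to -1.26), with an unadjusted p of 0.000856 from edgeR and an adjusted p of 0.127. It passed with DESeq2 at -2.86 (adjusted p = 0.00207), as did 3.85% of tested genes, and in an edgeR fit of only these groups at -2.67 (adjusted p = 0.033), as did 1.67%. The authors' deposited table gives -2.52 for hydrogel CT against SCI only with a false discovery rate of 0.0398, and 1.44% of its rows lie under 0.05. Growth factors minus hydrogel CT stood at 1.70 (SE 0.67, adjusted p = 0.284), and growth factors minus SCI only at -0.97 (SE 0.62, adjusted p = 0.389). Libraries with growth factors lay all above those of hydrogel CT, as in 3.85% of tested genes, and all below SCI only, as in 8.51%.

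Olig1 had 121, 137 and 261 CPM with growth factors, 111, 123 and 153 CPM with hydrogel CT and 204, 251, 256 and 291 CPM with SCI only. Hydrogel CT lay below SCI only without overlap, as in 6.21% of tested genes, with a log2 difference of -0.96 (SE 0.44, adjusted p = 0.377). Growth factors overlapped hydrogel CT, and their difference of 0.42 (SE 0.46, adjusted p = 0.719) became -0.03 without the library of number 1732. Against SCI only, growth factors stood at -0.53 (SE 0.44, adjusted p = 0.51).

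Olig2 was measured at 52.3, 56.2 and 93.9 CPM with growth factors, 15.6, 38.5 and 50.7 CPM with hydrogel CT and 18.7, 42.1, 57.7 and 57.8 CPM with SCI only. Growth factors lay above hydrogel CT without overlap, as in 3.85% of tested genes, by 0.95 (SE 0.62, adjusted p = 0.519). The SCI only libraries overlapped both groups. Growth factors minus SCI only was 0.61 (SE 0.57, adjusted p = 0.566), and hydrogel CT minus SCI only was -0.34 (SE 0.58, adjusted p = 0.832).

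Cacng4 stood at 36.7, 49.3 and 105 CPM with growth factors, 23.7, 28.2 and 29.3 CPM with hydrogel CT and 25, 26.8, 45 and 46.3 CPM with SCI only. Growth factors again lay above hydrogel CT without overlap, as in 3.85% of tested genes, by 1.23 (SE 0.59, adjusted p = 0.377). The difference was 0.65 without number 1732. Neither other comparison separated the libraries, with log2 differences of 0.83 (SE 0.54, adjusted p = 0.397) for growth factors minus SCI only and -0.40 (SE 0.55, adjusted p = 0.783) for hydrogel CT minus SCI only.

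**Figure D4:**
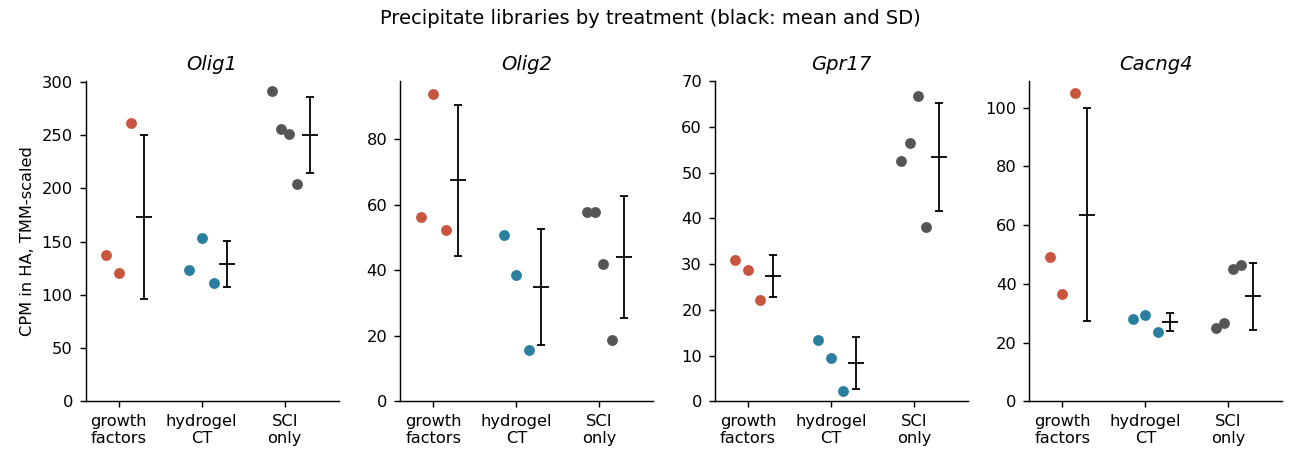
CPM of each gene in the 10 HA libraries by treatment, 1 point per library, with the group mean and SD in black. The groups do not overlap for Gpr17, which averages 27.4 CPM with growth factors, 8.43 with hydrogel CT and 53.5 with SCI only, while the ranges of Olig2 and Cacng4 overlap between the hydrogel groups and SCI only.

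With edgeR's fit over the 3 groups, the share of all genes that passed within HA was 0.0902% for growth factors against hydrogel CT, 0.195% for hydrogel CT against SCI only and 0.436% for growth factors against SCI only, and with DESeq2 it was 4.62%, 3.85% and 11.3%. Unadjusted edgeR p-values under 0.05 numbered 886, 843 and 1396, and Olig1 had 0.045 and Gpr17 0.000856 for hydrogel CT against SCI only and Gpr17 0.0202 for growth factors against hydrogel CT. The median of all genes was -0.14, 0.27 and 0.12 in these comparisons. With DESeq2 size factors the medians were 0.01, 0.05 and 0.06. Relative to the TMM medians, Gpr17 stood at 1.84, -2.93 and -1.09. Of the 16 progenitor list genes tested with edgeR in that fit, 0 passed in any of the 3 comparisons, 1, 4 and 3 had an unadjusted p under 0.05, and 11, 4 and 8 were positive. With DESeq2, 0, 2 and 2 passed, namely Gpr17 and Lims2 for hydrogel CT against SCI only and Nkx2-2 and Tnr for growth factors against SCI only. Lims2 and Gpr17 share exon bases on opposite strands and the strand setting is not given, so their 2 calls may not be independent. The list without the 4 genes summed to 91.3 to 218 CPM with growth factors, 140 to 228 with hydrogel CT and 121 to 156 with SCI only, so these sums overlapped.

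Other quantities differed between these groups too, and their part in the Gpr17 values was not tested. Yam1 took 67.6% to 75.7% of an HA library with growth factors, 40.0% to 57.6% with hydrogel CT and 87.8% to 93.1% with SCI only. Astrocyte markers summed to 3997 to 5239 CPM with growth factors, 3181 to 6064 with hydrogel CT and 2334 to 3353 with SCI only. Mature oligodendrocyte markers summed to 912 to 1883 CPM, 861 to 1741 and 690 to 980 in that order, and markers of committed progenitors and newly formed oligodendrocytes to 20.9 to 96.6, 10.6 to 57.6 and 48.8 to 98.7. Lims2, whose exons overlap those of Gpr17 on the other strand, had at most 62 counts in an HA library, against 113 to 702 for Gpr17.

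Ratios of counts within a library do not depend on how libraries are scaled, so they were compared by exact two-sided permutation tests. Their 18 comparisons were adjusted together, and the smallest p that 3 against 4 libraries allow is 0.0571, or 0.1 for 3 against 3, so none could pass. Gpr17 to Olig2 was 0.307 to 0.551 with growth factors, 0.142 to 0.266 with hydrogel CT and 0.908 to 2.04 with SCI only. The 3 groups did not overlap, but Gpr17 by itself already separated them, and how often other gene pairs do so was not counted. The mean log2 ratio differed by -2.63 between hydrogel CT and SCI only and by -1.65 between growth factors and SCI only (exact p = 0.0571 and adjusted p = 0.171 for both). Gpr17 to Olig1 was 0.0198 to 0.109 with hydrogel CT and 0.18 to 0.266 with SCI only, a difference of -2.04 (exact p = 0.0571, adjusted p = 0.171). With growth factors it was 0.0852 to 0.238 and overlapped both.

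Gpr17 to Cacng4 was 0.212 to 0.785 with growth factors, 0.0934 to 0.478 with hydrogel CT and 0.825 to 2.11 with SCI only, so both hydrogel groups lay below SCI only. Cacng4 to Olig1 was 0.304 to 0.401 with growth factors, 0.192 to 0.229 with hydrogel CT and 0.0858 to 0.227 with SCI only. Its difference between growth factors and hydrogel CT was 0.75 (exact p = 0.1, adjusted p = 0.225), the smallest p this size allows. Between growth factors and SCI only it was 1.35 (exact p = 0.0571, adjusted p = 0.171). Olig2 to Olig1 and Cacng4 to Olig2 overlapped between all groups.

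**Figure D5:**
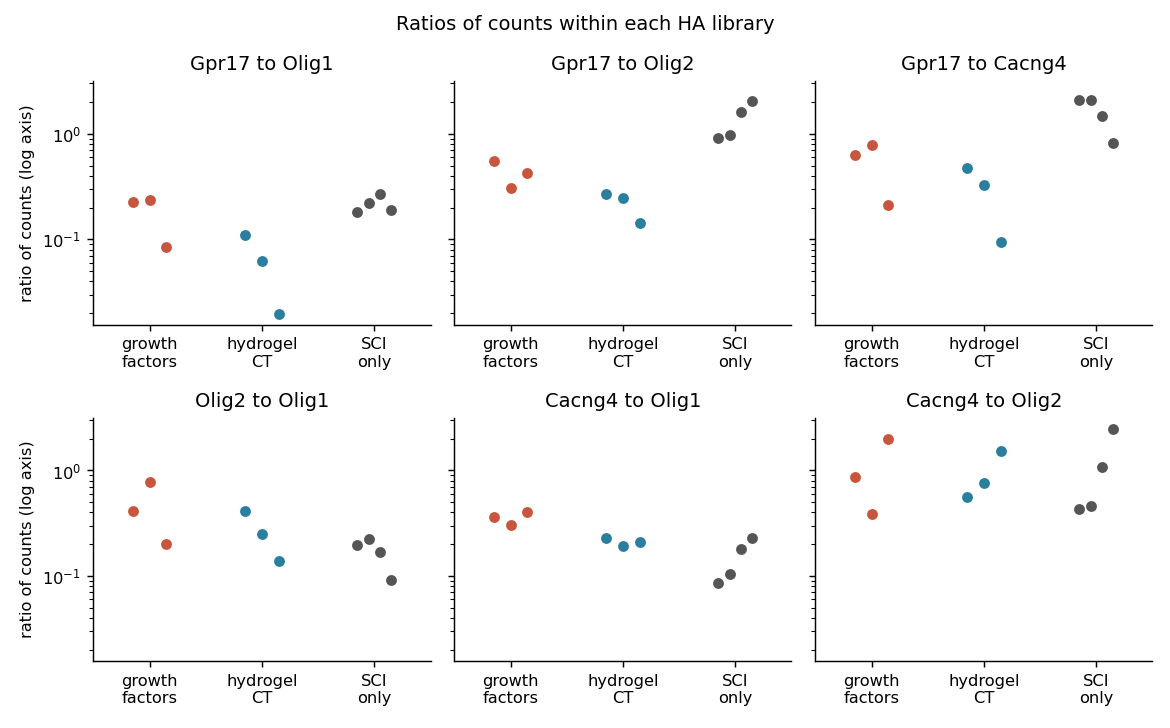
Ratio of counts of each pair of genes within each HA library, by treatment, on a log axis. Gpr17 to Olig2 does not overlap between the 3 groups (0.307 to 0.551 with growth factors, 0.142 to 0.266 with hydrogel CT, 0.908 to 2.04 with SCI only), while Olig2 to Olig1 and Cacng4 to Olig2 overlap throughout.

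Over the 10 HA libraries, Olig1 and Gpr17 had the highest Pearson r of log2(CPM + 1) among the 4 genes, at 0.71, followed by Olig2 and Gpr17 at 0.51. The other 4 pairs lay between 0.14 and 0.30. Among 1332 other genes compared, those most like Gpr17 were Mag (0.96), the ribosomal protein gene Rplp1 (0.94) and the elongation factor gene Eef2 (0.91). Mag differed by -2.80 between hydrogel CT and SCI only (SE 0.69, adjusted p = 0.123). Most like Olig1 were Lrrc8b (0.94), Tprn (0.93) and Myrf (0.93). The closest to Olig2 were Pacs2 (0.86), Gjc3 (0.83) and Vat1 (0.81), and to Cacng4 Hbegf (0.91), S100b (0.85) and Cdkn1a (0.84). These values are descriptions, since the points share libraries, scaling and the split of hydrogel and SCI only cohorts.

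In FT the 4 genes were near the limit of the counts. Olig1 had 1, 1, 10, 15 and 44 counts with growth factors, 3, 5, 9 and 9 with hydrogel CT and 9, 62, 82 and 156 with SCI only. Olig2 had 0, 0, 1, 3 and 11 counts, then 1, 1, 1 and 2, and then 3, 4, 10 and 85 in the same groups. Gpr17 reached 8 counts with growth factors, 2 with hydrogel CT and 18 with SCI only, and its sums were 10, 3 and 39. Cacng4 had 85 counts with growth factors, 82 of them in number 1732, 11 with hydrogel CT and 73 with SCI only. The deeper SCI only libraries carry most of these counts for Olig1, Olig2 and Gpr17, but not for Cacng4.

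Only Olig1 passed the filter on low counts within FT, where 610 genes were tested, and it passed no test. Its CPM, scaled over FT libraries, ranged from 8.21 to 202 with growth factors, 15 to 240 with hydrogel CT and 62.7 to 185 with SCI only, and all 3 groups overlapped. The log2 difference was 0.53 (SE 0.85, adjusted p = 0.956) for growth factors minus hydrogel CT, -0.93 (SE 0.83, adjusted p = 0.63) for hydrogel CT minus SCI only and -0.40 (SE 0.75, adjusted p = 0.805) for growth factors minus SCI only. The shares of all tested genes that passed were 0.00%, 3.11% and 3.77%, and 23 genes had an unadjusted p under 0.05 in the first. Without the filter, none of the 4 genes passed among 4898 genes, and Gpr17 stood at -1.53 (SE 1.21, adjusted p = 0.477) for hydrogel CT minus SCI only. Its scaled count ratio there was 0.281, from 3 and 39 counts. The exact 95% interval of 0.0556 to 0.885 again treats each read as an independent count.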

How the data were processed

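Counts of reads per transcript were deposited by the authors as whole numbers, 10389 rows for HA and 5001 for FT, with edgeR log2 fold changes, p-values and false discovery rates per the file headers. The submitters' processing notes name edgeR, CASAVA 1.8.2 and, as the build, mm10. Per the labels' protocols, cDNA was amplified with a NuGEN Ovation kit. Not given in the sources used here are aligner, counting program, strand setting and annotation. Counts were summed per gene symbol. Rows naming no gene (136 of the HA table, 35 of the FT table) held 0.00272% to 0.319% of a library and were left out. A further 45 columns of per-sample values were not used.

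Tests were two-sided quasi-likelihood tests in edgeR 4.0.16 (R 4.3.3) with TMM scaling, filterByExpr (minimum count 10) and Benjamini-Hochberg adjustment at 0.05 over all tested genes. HA was compared with FT in 10 title numbers on genes in both tables (4781 before filtering), with terms for treatment and fraction. For treatments, the libraries of a fraction shared a fit. DESeq2 1.42.0, other filters and scalings, left-out libraries and a replicate block were alternatives. The fits were tested on simulated data.

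Both fractions come from the same tissue per the study's design text, and it was inferred that a shared title number marks this tissue. Deviations of same-numbered libraries correlated at 0.00656 to 0.121, 2 of 10 were above 0.1, and for 8 of 10 HA libraries the closest FT library of that treatment bore the same number. No libraries were copies, with a chi-square per degree of freedom of 4.61 to 267 within groups. Gene positions are from GENCODE M21, whose symbols matched 99.7% of HA and 99.9% of FT genes.

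The 4 genes, the marker lists and the tests were chosen with earlier results of these data known. The 4 genes are named throughout, tested genes of the progenitor and TARP lists may be named, other lists by their highest and lowest member and, as most alike, 3 genes with a mean of at least 10 CPM for each of the 4.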

Additional observations from a re-analysis of the deposited data

Results flagged for a closer look

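Olig2 in the FT library of number 1683 with hydrogel CT stood at 53.4 CPM, far above the other 3 libraries of its group, at 3.01 to 7.62 CPM. The value rests on 2 counts in the library with the fewest counts of all, 19600. The rule was set to flag about 1 in 20 groups by chance, and 16 groups of 4 or 5 libraries were checked. How often it flags groups with counts this low was not tested.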

How the results depend on the processing

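HA against FT kept its direction and its call for all 4 genes under every alternative run. With the title number as a replicate block, the log2 differences were 3.34 for Olig1, 3.54 for Olig2, 3.31 for Gpr17 and 2.25 for Cacng4, and the block changed no call. Leaving out each number gave 3.01 to 3.46, 3.26 to 3.85, 3.16 to 3.65 and 1.87 to 2.32. Within a treatment, a fit of its libraries alone ended the calls of Olig1 (2.97, adjusted p = 0.0937) and Gpr17 (3.41, adjusted p = 0.211) with growth factors, and gave one for Cacng4 with SCI only (2.06, adjusted p = 0.012). Genes called in these fits numbered 97, 129 and 422 with growth factors, hydrogel CT and SCI only, against 426, 72 and 184 in the fit of all treatments, which gave 255 to 443, 8 to 186 and 48 to 284 without single numbers.

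Within HA, Gpr17 in hydrogel CT against SCI only passed with DESeq2 (-2.86) and in a fit of only these groups (-2.67), and stood at -3.14 to -2.20 without single libraries, which never passed (adjusted p at least 0.0809). Olig1 in growth factors against hydrogel CT ran from -0.03 to 0.61 and Olig2 in hydrogel CT against SCI only from -0.67 to 0.03. In FT, Olig1 in growth factors against SCI only was 0.06 with DESeq2 size factors, 0.07 without ribosomal loci, 0.08 with DESeq2 and -0.77 to 0.04 without single libraries. DESeq2 size factors also moved the median of all genes there to 0.45, against 0.01 with TMM. In the fit of only these groups Olig1 missed the filter and has no value. The cause of the changes was not tested.

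Interactions also changed sign without single numbers. For growth factors minus hydrogel CT the ranges were -1.44 to 0.59 for Olig1, -0.51 to 1.20 for Olig2, -0.44 to 2.30 for Gpr17 and -0.31 to 2.78 for Cacng4. For hydrogel CT minus SCI only they were -0.19 to 1.31 for Olig1, -2.67 to 0.01 for Gpr17 and -0.65 to 0.24 for Cacng4, and for growth factors minus SCI only -0.62 to 0.93 for Olig1, -0.66 to 0.39 for Gpr17 and -0.22 to 2.61 for Cacng4.

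Genes called within HA depended on the tool. DESeq2 called 293 for growth factors against hydrogel CT, 244 for hydrogel CT against SCI only and 715 for growth factors against SCI only, where edgeR called 6, 13 and 29. Other edgeR settings with all libraries of the groups called 0 to 8, 4 to 113 and 5 to 69, and edgeR without single libraries 0 to 13, 3 to 29 and 2 to 127. In FT, hydrogel CT against SCI only gave 19, against 6 to 209 in other edgeR settings, 57 with DESeq2 and 4 to 34 without single libraries. Growth factors against SCI only gave 23, against 6 to 174, 79 and 9 to 36. Low FT counts limit every FT value.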
